A study of Mus musculus with 12 samples.

Results

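The response of N4bp1-/- peritoneal macrophages to LPS was taken from the mean FPKM of the knockout cells after LPS and of the knockout cells left untreated, joined by gene name. FPKM scales the fragments of a gene to its transcript length and to the mapped fragments of the library. These groups hold 4 of the 12 libraries of the series, and all 124 genes of the authors' NF-κB-dependent list were used. The knockout mice are C57BL/6J animals that carry a small CRISPR-Cas9 deletion in exon 2 of N4bp1. Cells of 2 knockout mice were given LPS at 10 ng/ml for 2 h, and cells of 2 knockout mice received no stimulus. Whether the same mice gave the cells of both groups is not stated. The labels state no culture time for the untreated cells. Wild-type (N4bp1+/+) C57BL/6J cells given the same LPS or none, and knockout cells given the TLR7 ligand R848 at 20 ng/ml for 2 h, stand beside them where they show how the knockout response differs. All cells were drawn into the peritoneal cavity with thioglycollate, recovered by lavage and cultured. The study used adult mice of both sexes and states that the sequencing experiment was done once.

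Each group has 1 deposited value per gene, the authors' mean over its 2 mice. No spread between mice can be given, no test was made, and every difference below is a description of these means. The depth of the libraries is unknown. The LPS values and the untreated values come from separate tables, and the sources used here do not state a common scaling. In both genotypes the titles of the untreated libraries begin with another letter than those of the stimulated libraries. If this marks a batch, batch and stimulus cannot be told apart. N4bp1 is not among the 124 genes, and the label of the knockout was therefore not checked on its own transcript. Of 8 macrophage markers only Spi1 and Tfec have values, and Adgre1, Csf1r, Cd68, Lyz2, Itgam and Mertk were not analysed here. How the 124 genes were chosen is not stated, so their higher level after LPS is not evidence about NF-κB target genes at large.

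LPS, a component of the outer membrane of Gram-negative bacteria, is sensed by TLR4. The receptor signals through the adapters MyD88 and TRIF to the IκB kinase complex, in which NEMO is the regulatory subunit, and the kinase marks IκB proteins for breakdown so that NF-κB dimers can enter the nucleus. TRIF also leads to the factor IRF3 and to type I interferon. In macrophages this program yields cytokines and chemokines together with its own inhibitors, and the study examined N4BP1 as an inhibitor that acts on NEMO. R848 signals through MyD88 without TRIF.

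In knockout macrophages almost every listed gene had a higher mean after LPS than without it. A ratio could be formed for 123 genes, and 106 of them (86.2%) were over 2-fold higher after LPS, 58 (47.2%) over 10-fold and 17 (13.8%) over 100-fold, while 0 were over 2-fold lower. The median gene was 8.93-fold higher, a log2 ratio of 3.16, and the middle of the distribution ran between 3.45-fold at the lower quartile and 27.9-fold at the upper quartile. The remaining gene, Il23a (the p19 chain of IL-23), had 4.39 FPKM after LPS and is listed at 0 in untreated cells, so no ratio is given. With a pseudocount of 1 FPKM, which damps the ratios of low genes, the median became 6.13-fold, and 99 of 124 genes were over 2-fold, 48 over 10-fold and 9 over 100-fold higher. In these bulk samples a change in the share of a cell type and a change in RNA per cell cannot be told apart.

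The median gene had 73.9 FPKM after LPS, against 6.39 FPKM in untreated cells. Genes at or over 100 FPKM numbered 56 after LPS and 7 without it, and genes under 1 FPKM numbered 9 after LPS and 33 without it. The FPKM of all 124 genes summed to 33384 after LPS and to 2755 in untreated cells, 12.1-fold more.

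**Figure D1:**
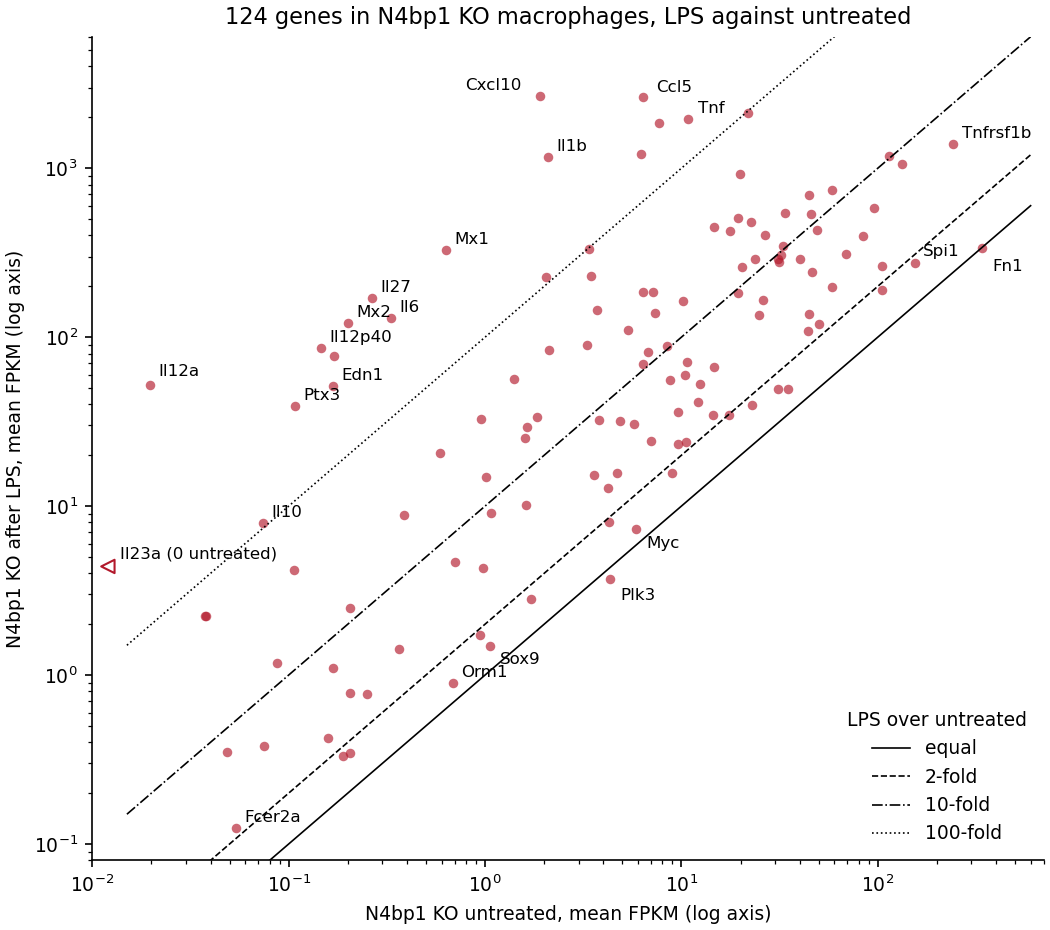
Mean FPKM of each gene in N4bp1-/- macrophages after LPS (vertical, log axis) against untreated (horizontal, log axis), 1 point per gene and 2 mice per mean. The lines mark equal levels and 2-fold, 10-fold and 100-fold higher levels after LPS. Only Plk3 and Fn1 lie below the line of equal levels, and Il23a, listed at 0 untreated, is drawn as an open triangle at the left edge.

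Letters in the promoters of the listed genes were read to show what sequence lies before genes at both ends of this range. Those of Cxcl10, Il6, Nfkbia, Tlr2 and Tnf, all over 10-fold higher after LPS, are shown with that of Plk3, the gene with the lowest ratio. Each is the 250 bases before the RefSeq start of the gene in GRCm38.p6, 5′ to 3′ along the gene. Capitals mark matches to the κB consensus, the recognition sequence of NF-κB, and in Cxcl10 also the repeat bound by interferon regulatory factors (IRF), written GAAA, any 2 bases, GAAA.
Cxcl10: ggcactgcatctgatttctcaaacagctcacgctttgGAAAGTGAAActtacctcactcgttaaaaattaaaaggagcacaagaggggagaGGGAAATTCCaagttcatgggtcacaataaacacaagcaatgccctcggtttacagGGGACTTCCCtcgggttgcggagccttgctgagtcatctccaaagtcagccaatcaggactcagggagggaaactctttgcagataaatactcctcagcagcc
Il6: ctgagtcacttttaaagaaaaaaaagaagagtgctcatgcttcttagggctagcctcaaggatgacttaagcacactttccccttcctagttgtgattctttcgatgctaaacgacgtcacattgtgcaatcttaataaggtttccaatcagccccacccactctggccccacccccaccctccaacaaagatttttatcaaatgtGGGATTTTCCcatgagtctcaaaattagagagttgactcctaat
Nfkbia: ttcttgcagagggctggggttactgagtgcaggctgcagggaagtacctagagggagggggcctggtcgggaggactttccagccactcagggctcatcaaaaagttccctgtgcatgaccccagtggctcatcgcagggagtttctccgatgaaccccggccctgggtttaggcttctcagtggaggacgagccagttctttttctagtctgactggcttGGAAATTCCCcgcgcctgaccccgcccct
Tlr2: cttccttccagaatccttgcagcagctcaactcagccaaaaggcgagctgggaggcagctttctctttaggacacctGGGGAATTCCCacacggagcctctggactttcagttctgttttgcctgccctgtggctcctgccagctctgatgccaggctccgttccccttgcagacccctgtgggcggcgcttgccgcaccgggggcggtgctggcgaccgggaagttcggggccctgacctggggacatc
Tnf: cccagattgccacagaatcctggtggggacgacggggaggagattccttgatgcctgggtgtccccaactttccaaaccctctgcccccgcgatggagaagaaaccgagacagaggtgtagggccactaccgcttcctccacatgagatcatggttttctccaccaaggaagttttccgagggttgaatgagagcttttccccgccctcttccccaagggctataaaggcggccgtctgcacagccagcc
Plk3: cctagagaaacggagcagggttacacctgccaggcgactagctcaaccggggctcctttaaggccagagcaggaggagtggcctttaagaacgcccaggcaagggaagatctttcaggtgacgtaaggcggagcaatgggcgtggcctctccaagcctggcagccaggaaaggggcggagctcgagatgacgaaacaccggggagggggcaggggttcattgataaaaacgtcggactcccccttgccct
The RefSeq starts of Cxcl10, Il6 and Tlr2 lie inside the longer loci that the deposited tables give for these genes. The windows lie at chr5:92348890-92349139 (Cxcl10, minus strand), chr5:30012864-30013113 (Il6, plus strand), chr12:55492648-55492897 (Nfkbia, minus strand), chr3:83841609-83841858 (Tlr2, minus strand), chr17:35202008-35202257 (Tnf, minus strand) and chr4:117133964-117134213 (Plk3, minus strand). In Cxcl10 the κB matches lie 159 to 150 and 103 to 94 bases before the start, and the IRF match 213 to 204 bases before it. Il6 holds a κB match 44 to 35 bases and Nfkbia a match 29 to 20 bases before the start, the match in Nfkbia being on the other strand. The capitals in Tlr2 are overlapping κB matches at 173 to 164 and 172 to 163 bases, and the match at 172 to 163 bases reads the same on both strands. The windows of Tnf and Plk3 hold no exact match to either motif. The windows shown were picked by hand, so their matches do not give the share among all matched genes. Sites that depart from the consensus or lie outside the window were not searched. Tnf was 181-fold higher after LPS whereas Plk3 was 0.859-fold its untreated level.

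RefSeq promoters of 300 bases, the same 250 with the 50 bases that follow the start, could be matched for 82 of the 124 genes, against 27025 genes in the whole table. The κB consensus occurred on either strand in 24 of the 82 (29.3%), beside 5.14% of all promoters. The 40 matched genes over 10-fold higher in knockout cells held it in 12 cases (30.0%) and the other 42 in 12 cases (28.6%). The IRF repeat occurred in 4 of the 82 (4.88%), beside 3.99% of all promoters, the TATA box (TATAAA) in 24 (29.3%), beside 15.7%, and the AP-1 motif (TGACTCA) in 15 (18.3%), beside 5.95%. These are matches of letters in a fixed window, and the list was assembled as NF-κB-dependent, so the κB share describes the list.

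The messages that dominated the listed genes after LPS were chemokines and cytokines. Cxcl10, a chemokine for activated T cells, had 2669 FPKM after LPS, against 1.91 FPKM in untreated cells, a ratio of 1400. Ccl5, which encodes RANTES, had 2655 FPKM after LPS and 6.39 FPKM untreated. Ccl3, which encodes MIP-1α, had 2108 FPKM after LPS and 21.9 FPKM untreated. These 3 genes ranked highest after LPS, and 0 of them were among the 10 highest genes in untreated cells. Tnf, the founding inflammatory cytokine of its family, had 1955 FPKM after LPS, against 10.8 FPKM untreated. Ccl4, which encodes MIP-1β, had 1859 FPKM after LPS and 7.69 FPKM untreated. The IL-1 genes followed, with 1212 FPKM of Il1a after LPS, against 6.22 FPKM untreated, and 1160 FPKM of Il1b after LPS, against 2.08 FPKM untreated. The other 3 genes over 1000 FPKM after LPS were already among the 10 highest in untreated cells. Tnfrsf1b, which encodes TNF receptor 2, had 1384 FPKM after LPS and 243 FPKM untreated. Tnfaip2, a gene induced by TNF, had 1187 FPKM after LPS and 114 FPKM untreated, and the locus that joins Bcl2a1b, of the anti-apoptotic A1 genes, with Gm29094 and Mthfs had 1059 and 133 FPKM. The 10 highest genes held 51.7% of the summed FPKM after LPS and 52.4% in untreated cells, so the concentration on a few messages was about the same while 3 of their members were shared. Of the total increase in FPKM, the 5 genes with the largest increases made up 36.6% and the 10 largest 54.5%.

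The 7 other genes among the 10 highest without stimulus encode surface, matrix and regulatory proteins. Fibronectin (Fn1) headed them with 335 FPKM after LPS and 340 FPKM untreated. Spi1, which encodes the macrophage lineage factor PU.1, had 276 FPKM after LPS and 154 FPKM untreated. The others had 190 and 105 FPKM (Ptafr, the receptor of platelet-activating factor), 263 and 105 FPKM (Prkcd, a protein kinase C), 585 and 96.2 FPKM (Cd44, the hyaluronan receptor), 395 and 84.2 FPKM (Junb, an AP-1 subunit) and 309 and 68.8 FPKM (Psme2, a proteasome activator), each given after LPS and then untreated. All of these but Cd44 were under 6-fold higher after LPS.

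**Figure D2:**
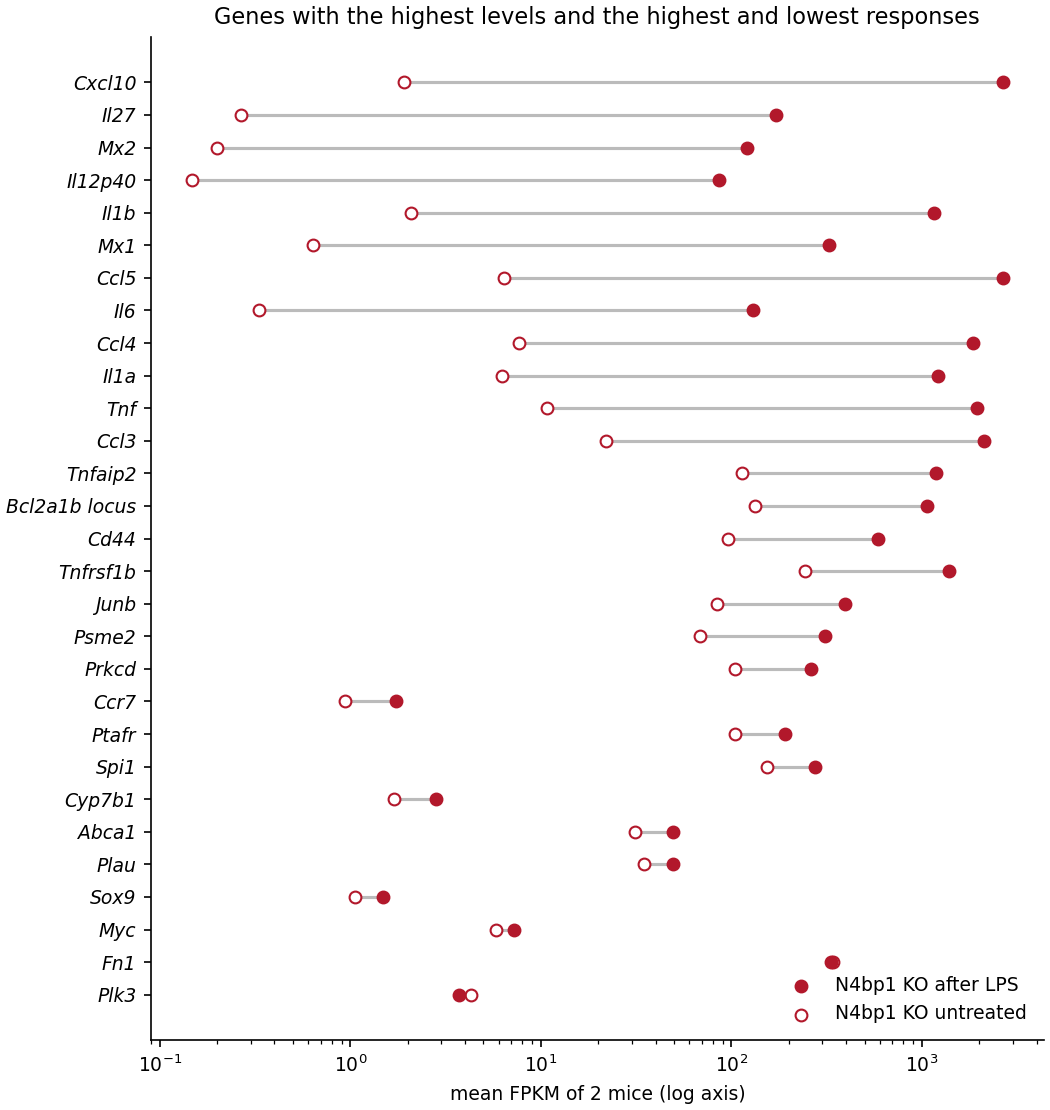
Mean FPKM (horizontal, log axis) in N4bp1-/- macrophages after LPS (filled) and untreated (open) for the genes with the highest levels in either group and the highest and lowest responses, ordered by their ratio. Cxcl10 spans the largest ratio of those shown, 1400-fold, and the points of Fn1 (335 and 340 FPKM) coincide.

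Inflammatory cytokines had the highest list median after the IL-12 family, and the highest with a pseudocount of 1 FPKM. All 8 had values and were over 2-fold higher after LPS (86.2% of all genes were), 7 were over 10-fold and 6 over 100-fold higher, with a median of 188-fold, or 80.7-fold with a pseudocount of 1 FPKM. Their FPKM summed to 5156 after LPS and to 75.0 untreated. Il1b, at 557-fold, and Tnfsf15, which encodes the TNF family member TL1A and had 76.9 FPKM after LPS and 0.171 FPKM untreated, led the list. Il6 (chromosome 5 of mm10, 30013073 to 30019981), a cytokine of the acute phase response, had 129 FPKM after LPS, against 0.331 FPKM untreated, a ratio of 390. Il10, which restrains macrophage cytokine production, had 7.95 FPKM after LPS and 0.0741 FPKM untreated. The smallest ratio was that of the IL-1 receptor antagonist Il1rn, which stood at 431 FPKM after LPS and 49.0 FPKM untreated, 8.79-fold. Tnf lies at chromosome 17, 35199381 to 35202007, and Il1b at chromosome 2, 129364570 to 129375748.

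Subunits of the IL-12 family had the highest median of the 18 lists without a pseudocount, with untreated levels under 1 FPKM in 4 of 5 genes. With the pseudocount of 1 FPKM the inflammatory cytokines lay above them. Il12a, the p35 subunit of IL-12, had 52.3 FPKM after LPS and 0.0196 FPKM untreated, and its ratio of 2664 rests on that untreated value. Il12p40 (the gene Il12b), shared by IL-12 and IL-23, had 86.3 FPKM after LPS, against 0.147 FPKM untreated. Il27, the p28 subunit of IL-27, had 171 FPKM after LPS, against 0.266 FPKM untreated. Its partner Ebi3 differed from these, with 24.0 FPKM after LPS and 10.6 FPKM untreated, 2.27-fold. The median of the 4 genes with a ratio was 613-fold, and over all 5 genes 52.2-fold with the pseudocount of 1 FPKM, which gives Il23a a value.

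CC chemokines, which draw in monocytes, T cells and dendritic cells, held 23.5% of the summed FPKM after LPS and 4.01% in untreated cells. All 7 members with values were over 2-fold higher, 6 over 10-fold and 2 over 100-fold, beside 86.2%, 47.2% and 13.8% of all genes. Their median was 30.4-fold. Ccl5 (chromosome 11, 83524875 to 83530518) was highest at 416-fold, followed by Ccl4 at 242-fold. Ccl2, a monocyte attractant, had 447 FPKM after LPS and 14.7 FPKM untreated, and Ccl9 had 747 FPKM after LPS and 58.7 FPKM untreated. Ccl17, a ligand of CCR4, stayed low, with 0.426 FPKM after LPS and 0.158 FPKM untreated, although Ccl22, which binds the same receptor, had 14.8 FPKM after LPS and 1.01 FPKM untreated. Of the CXC chemokines only 3 of 7 have values. Cxcl10, for which the tables give a long locus on chromosome 5 (92331827 to 92414628), was 1400-fold higher, Cxcl9, a ligand of the same receptor, had 8.87 FPKM after LPS and 0.388 FPKM untreated, and Cxcl5, a neutrophil attractant, had 23.3 FPKM after LPS and 9.65 FPKM untreated.

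Interferon-inducible genes had higher levels after LPS than after R848 in knockout cells. All 11 members with values were over 2-fold higher after LPS, 9 over 10-fold and 5 over 100-fold (86.2%, 47.2% and 13.8% of all genes), with a median of 28.8-fold, beside 5.28-fold after R848. Both ratios share the untreated knockout cells, so the values are given side by side without a measure of likeness. Mx1, an antiviral GTPase (chromosome 16, 97447035 to 97463003), had 326 FPKM after LPS and 4.46 FPKM after R848, against 0.633 FPKM untreated. Mx2 had 121 FPKM after LPS and 0.967 FPKM after R848, against 0.200 FPKM untreated. Cxcl10 had 2669 FPKM after LPS and 21.7 FPKM after R848, against 1.91 FPKM untreated. Irf1, a transcription factor of this response, had 505 FPKM after LPS and 169 FPKM after R848, against 19.4 FPKM untreated, and Psme2 had 309, 229 and 68.8 FPKM in the same order. Ccl5, with 496 FPKM after R848, was between these patterns.

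Across all genes the medians after LPS and R848 lay closer together. After R848, 118 of 123 genes (95.9%) were over 2-fold, 44 (35.8%) over 10-fold and 14 (11.4%) over 100-fold higher than untreated, with a median of 7.27-fold, and 0 were over 2-fold lower. Adora2a, an adenosine receptor that restrains inflammation, had 89.9 FPKM after LPS and 3.33 FPKM after R848, against 3.32 FPKM untreated. Tnfsf15 had 76.9 FPKM after LPS and 9.88 FPKM after R848. Other genes were higher after R848: Tnf had 1955 FPKM after LPS and 2838 FPKM after R848, Il1b 1160 and 2108 FPKM, and Il12p40 86.3 and 198 FPKM. The inflammatory cytokines had a median of 188-fold after LPS and 217-fold after R848, and the IL-12 family 613-fold and 504-fold. A common scaling of the LPS and R848 tables is not stated, so small differences between them are not read.

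The components and inhibitors of the NF-κB pathway itself had smaller list medians than the inflammatory cytokines. Single genes overlapped, with Nfkbiz at 65.9-fold above the cytokines Il15 (28.8-fold) and Il1rn (8.79-fold). Of the NF-κB subunits, all 4 with values were over 2-fold higher after LPS and 2 over 10-fold (86.2% and 47.2% of all genes were). Their median was 8.13-fold. Nfkb1, the precursor of p50, had 345 FPKM after LPS and 33.0 FPKM untreated, and Nfkb2, the precursor of p52, had 261 and 20.4 FPKM. The DNA-binding partners Rel and Relb had 55.7 and 66.7 FPKM after LPS, against 8.79 and 14.6 FPKM untreated. The 4 IκB genes with values had a median of 17.1-fold. Nfkbia (chromosome 12, 55489410 to 55492647), which encodes the inhibitor IκBα, had 690 FPKM after LPS and 44.8 FPKM untreated, 15.4-fold. Nfkbiz, whose nuclear product helps transcribe secondary genes such as Il6, had the highest ratio of the 4, with 229 FPKM after LPS and 3.48 FPKM untreated. Nfkbie and Bcl3 were 19.0-fold and 6.63-fold higher.

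Ubiquitin editors and adapters, which act upstream on the kinase complex, had a median of 10.1-fold. All 6 with values were over 2-fold higher, beside 86.2% of all genes. Tnfaip3, which encodes the feedback inhibitor A20, had 425 FPKM after LPS and 17.7 FPKM untreated. Traf1 had 184 FPKM after LPS and 7.19 FPKM untreated, Ripk2, the kinase downstream of the NOD receptors, 69.5 and 6.40 FPKM, and Tnip1, a partner of A20, 289 and 31.0 FPKM. Traf2 had the lowest ratio, 3.49-fold.

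Receptors and sensors split widely. Of 13 with values, 10 were over 2-fold and 6 over 10-fold higher after LPS (86.2% and 47.2% of all genes were), with a median of 5.71-fold. Cd40, the co-stimulatory receptor, had 331 FPKM after LPS and 3.39 FPKM untreated, and Nod2, a sensor of bacterial cell wall fragments, had 32.9 and 0.951 FPKM. Tlr2 (chromosome 3, 83836272 to 83841767), the receptor for bacterial lipoproteins, had 534 FPKM after LPS and 45.8 FPKM untreated, 11.7-fold. At the other end, Tnfrsf9 had 0.333 FPKM after LPS and 0.188 FPKM untreated, while Ptafr was 1.81-fold and the chemokine receptor Ccr7 1.84-fold higher. All 3 are among the least changed genes used for the scaling described below. Their turn to lower under that scaling follows from the subtraction. Of the co-stimulation and maturation genes, 4 of 6 were over 2-fold higher, beside 86.2% of all genes. The 4 include Cd80, a ligand of CD28, with 32.3 FPKM after LPS and 3.82 FPKM untreated, and Cd83 with 291 and 23.7 FPKM. Cd274, which encodes PD-L1, also belongs to them, with 290 FPKM after LPS, 7.25-fold its untreated level.

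**Figure D3:**
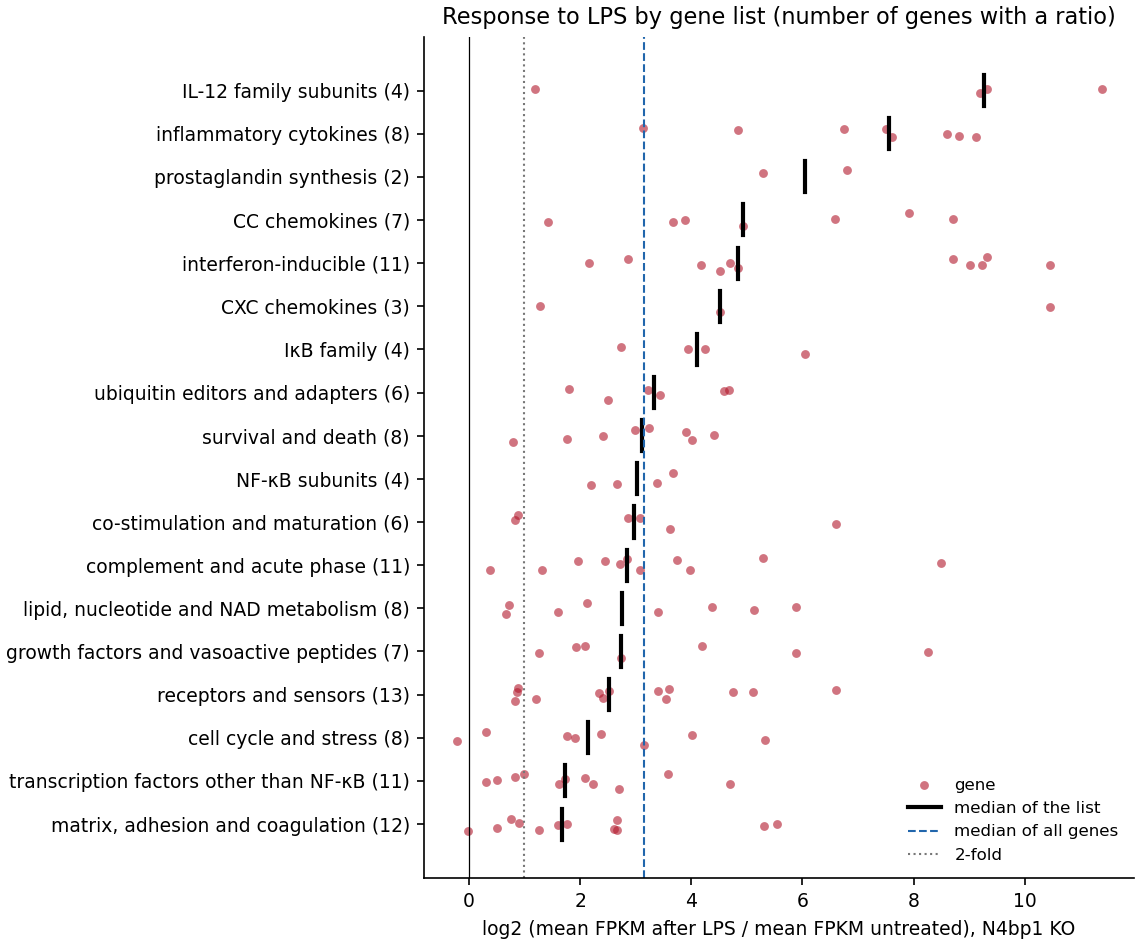
Log2 ratio of mean FPKM after LPS to untreated in N4bp1-/- macrophages (horizontal) for each gene (points) in 18 lists (rows), with the median of each list as a bar and the number of genes with a ratio in brackets. The dashed line is the median of all genes, 3.16, and the dotted line 2-fold. With no pseudocount the medians of 8 lists lie above the dashed line, with the IL-12 family highest at 9.26 and the matrix list lowest at 1.68.

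Survival and death genes were close to the whole list, with 7 of 8 over 2-fold higher, beside 86.2% of all genes, and a median of 8.68-fold, beside 8.93-fold. Cflar, which encodes the caspase-8 inhibitor cFLIP, had 401 FPKM after LPS and 26.6 FPKM untreated, and Pim1, a survival kinase, had 304 and 32.2 FPKM. The A1 genes Bcl2a1a and Bcl2a1d had 165 and 481 FPKM after LPS, against 10.1 and 22.7 FPKM untreated, but their near-identical sequences leave the split of reads between them uncertain. The pro-apoptotic Bcl2l11 (BIM) was lowest, with 39.7 FPKM after LPS and 22.9 FPKM untreated. In the list of cell cycle and stress genes, Ccnd2, a D-type cyclin, had the highest ratio with 56.3 FPKM after LPS and 1.41 FPKM untreated. The cell cycle inhibitor Cdkn1a (p21) had 542 and 33.6 FPKM, and mitochondrial superoxide dismutase Sod2 280 and 31.3 FPKM.

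Prostaglandin synthesis was represented by Ptgs2 (COX-2) and Ptges, which act in sequence to make prostaglandin E. Ptgs2 had 226 FPKM after LPS and 2.03 FPKM untreated, 111-fold, and Ptges 146 and 3.73 FPKM, 39.1-fold. Complement and acute phase genes had a median of 7.21-fold, which became 2.45-fold with a pseudocount of 1 FPKM because 7 of the 11 were under 1 FPKM in untreated cells. Ptx3, a soluble pattern recognition protein, had 39.1 FPKM after LPS and 0.108 FPKM untreated. The joined locus of the complement genes C2 and Cfb had 135 and 24.7 FPKM, and C3, the central complement component, had 109 and 44.1 FPKM. Hamp, which encodes the iron hormone hepcidin, had 1.18 FPKM after LPS and 0.0876 FPKM untreated. Orm1 was lowest, with 0.894 and 0.683 FPKM, and reads may be shared among the similar Orm genes.

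Growth factors and vasoactive peptides had a median of 6.68-fold, or 3.34-fold with the pseudocount of 1 FPKM. Without it 7 of 7 were over 2-fold higher, beside 86.2% of all genes. Edn1, which encodes the vasoconstrictor endothelin-1, had 51.2 FPKM after LPS and 0.168 FPKM untreated, 305-fold. Inhba, an activin subunit, had 33.6 and 1.84 FPKM, and Csf1, which encodes the macrophage growth factor M-CSF, 53.1 and 12.5 FPKM. Csf3, which encodes G-CSF, had 2.23 FPKM after LPS and 0.0375 FPKM untreated. Genes of lipid, nucleotide and NAD metabolism had a median of 6.79-fold, or 2.88-fold with the pseudocount. Lipg, which encodes endothelial lipase, had 2.23 FPKM after LPS and 0.0378 FPKM untreated. The list also holds Upp1 (uridine phosphorylase), with 20.7 FPKM after LPS and 0.589 FPKM untreated, Cd38, an NAD hydrolase, with 110 and 5.31 FPKM, the scavenger receptor Olr1, with 89.0 and 8.43 FPKM, and, at its low end, the cholesterol exporter Abca1, with 49.4 and 31.0 FPKM.

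Matrix, adhesion and coagulation genes had a median of 3.20-fold, the lowest of the 18 lists without a pseudocount. Of 12 with values, 8 were over 2-fold higher, beside 86.2% of all genes. With the pseudocount of 1 FPKM complement and acute phase genes (2.45-fold) and metabolism genes (2.88-fold) lay below the matrix genes (2.97-fold). The matrix genes held 23.2% of the summed FPKM in untreated knockout cells and 7.48% after LPS. Their own sum was higher after LPS, with 2496 FPKM against 638 FPKM untreated. Fn1 made up 340 FPKM of the untreated sum. Sdc4, a cell surface proteoglycan, and Vcam1, an adhesion molecule for leukocytes (chromosome 3, 116109949 to 116141016), stand out in the list. Sdc4 had 928 FPKM after LPS and 19.9 FPKM untreated, 46.5-fold, and Vcam1 83.9 and 2.11 FPKM, 39.8-fold. Thrombospondin 1 (Thbs1) had 120 FPKM after LPS and 50.2 FPKM untreated. The urokinase gene Plau was 1.43-fold higher, with 49.6 FPKM after LPS and 34.8 FPKM untreated, and Fn1 was near its untreated level.

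Transcription factors other than NF-κB had a median of 3.31-fold, with 7 of 11 over 2-fold higher, beside 86.2% of all genes. After Irf1, Stat5a, a factor activated by cytokine receptors, had 81.3 FPKM after LPS and 6.78 FPKM untreated, and Junb was 4.69-fold higher. The joined locus that holds Hif1a, the hypoxia factor, had 137 and 44.7 FPKM. Myc, a driver of growth, had 7.27 FPKM after LPS and 5.84 FPKM untreated. Prdm1, which encodes BLIMP-1, had 15.6 and 4.72 FPKM.

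A small set of genes, 17 of 123, was not over 2-fold higher after LPS. Only 2 genes had a lower mean after LPS: Plk3, a stress-response kinase (chromosome 4, 117126794 to 117133963), with 3.71 FPKM after LPS and 4.32 FPKM untreated, a log2 ratio of -0.22, and Fn1 (chromosome 1, 71585520 to 71662843), with a log2 ratio of -0.02. A further 15 genes were higher by at most 2-fold. If the values are scaled to the 31 genes least changed after LPS in wild-type cells, every log2 ratio in knockout cells drops by 0.91. Then 90 genes are over 2-fold higher, and 15 genes are lower in place of 2, namely Plk3, Fn1, Myc, Orm1, Sox9, Plau, Abca1, Cyp7b1, Serpine2, Bcl2l11, the joined locus of Ahctf1 and Kif28, Tnfrsf9, Spi1, Ptafr and Ccr7. Mmp9 is then at 0. The shift is the knockout median of the 31 genes, which is the value of Mmp9. By construction 15 of the 31 therefore fall below 0, and these are the 15 named. These 31 genes come from the list itself and are not neutral.

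Markers of other cell types also had higher summed levels after LPS, and their part in the results was not tested. Their sums were 5.87-fold (neutrophil), 11.1-fold (stromal) and 11.9-fold (dendritic cell) higher, beside 12.1-fold for all 124 genes. Of 9 neutrophil markers, 3 have values (Lcn2, Mmp9 and Trem1) and summed to 35.9 FPKM after LPS and 6.11 FPKM untreated. Of 12 stromal markers, 5 have values and summed to 271 FPKM after LPS and 24.5 FPKM untreated, most of it from Cav1 (182 and 19.4 FPKM) and Vcam1. The remaining stromal markers with values, Sox9, Cyp7b1 and Serpine2, were each under 2-fold higher. Of 7 dendritic cell markers, 4 have values, with sums of 308 FPKM after LPS and 25.8 FPKM untreated, most of it Cd83. The B cell marker Fcer2a (0.124 and 0.0537 FPKM) and the T cell marker Il2ra (0.378 and 0.0746 FPKM) were near 0. The defining markers S100a8, S100a9, Ly6g, Col1a1, Pdgfra, Flt3 and Cd3e were not analysed here. The macrophage markers Spi1 and Tfec summed to 308 FPKM after LPS and 159 FPKM untreated.

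The size of the response was set beside that of wild-type cells, as the log2 ratio in knockout cells minus the log2 ratio in wild-type cells. Wild-type cells had 113 of 124 genes (91.1%) over 2-fold, 69 (55.6%) over 10-fold and 25 (20.2%) over 100-fold higher after LPS, 0 over 2-fold lower, and a median of 13.2-fold. The ratio was smaller in knockout cells for 100 of 123 genes (81.3%) and larger for 23, with a median difference of -0.51. It was smaller by over 1 for 29 genes (23.6%) and larger by over 1 for 4 genes (3.25%). Both genotypes of a treatment were deposited together, so a scaling factor common to them cancels in this difference. The split does depend on a separate shift for each genotype. Scaled to the 31 least changed genes, wild-type ratios drop by 1.40 and knockout ratios by 0.91. The median difference then becomes -0.01, and 63 genes are smaller and 59 larger in knockout cells, with Mmp9 at 0. These 31 are listed genes, so the shifts also take out what the genotypes differ by in them. The median log2 ratio of knockout to wild-type levels was -0.09 after LPS and 0.53 in untreated cells. For each gene the difference of the responses is, by arithmetic, the former ratio minus the latter. Not every smaller response went with a higher untreated value in knockout cells. Il1a, with a difference of -0.64, had ratios of -0.92 after LPS and -0.28 untreated. For Il12p40, with a difference of -0.71, they were -0.87 and -0.17.

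**Figure D4:**
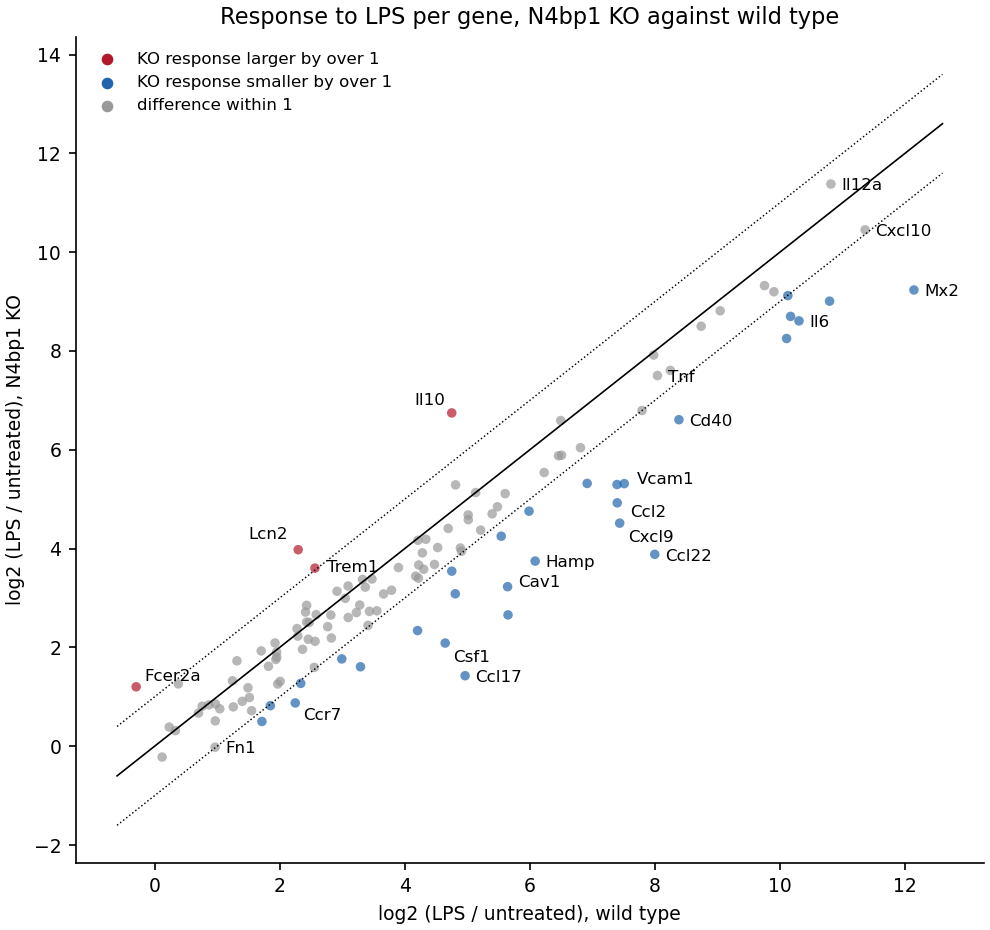
Log2 ratio of mean FPKM after LPS to untreated in N4bp1-/- macrophages (vertical) against wild-type macrophages (horizontal), 1 point per gene, for the 123 genes with both ratios. The solid line marks equal responses and the dotted lines a difference of 1. The 29 blue points are smaller and the 4 red points (Il10, Lcn2, Fcer2a and Trem1) larger in knockout cells by over 1.

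With a pseudocount of 1 FPKM the lowest differences included those of Ccl22, Il23a, Ccl2, Cav1 and Csf1. Ccl22 had 14.8 FPKM after LPS and 1.01 FPKM untreated in knockout cells, and 46.5 FPKM after LPS and 0.182 FPKM untreated in wild-type cells, a difference of -4.11, or -2.35 with a pseudocount of 1 FPKM. Csf1 had 53.1 FPKM after LPS and 12.5 FPKM untreated in knockout cells, and 56.5 and 2.26 FPKM in wild-type cells, a difference of -2.56. For Csf1 the genotypes were close after LPS and apart without it. Ccl2 (-2.47) and Cav1, the main protein of caveolae (-2.42), were lower in knockout cells after LPS and higher without it, with 447 and 182 FPKM after LPS and 14.7 and 19.4 FPKM untreated in knockout cells, and 715 and 280 FPKM after LPS and 4.24 and 5.59 FPKM untreated in wild-type cells. Il23a had 4.39 FPKM after LPS in knockout cells and 26.2 FPKM in wild-type cells, where it was 0.0193 FPKM untreated.

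All 29 genes with a response smaller by over 1 had a higher untreated mean in knockout than in wild-type cells, 25 of them by over 1 on the log2 scale, as the choice by difference favors. After LPS 21 of the 29 were lower in knockout cells, only 4 of them by over 1 (Ccl17, Hamp, Ccl22 and Edn1), and 8 were higher in knockout cells with and without LPS. Of the 29, Il1b differed least in untreated cells. Its log2 ratio of knockout to wild type was -0.86 after LPS, with 1160 FPKM in knockout and 2110 FPKM in wild-type cells, and 0.14 untreated. In 12 of the 29 the untreated mean was under 1 FPKM in both genotypes, among them Mx2, Il6 and Cxcl9, so that the ratio rests on low values. With the pseudocount of 1 FPKM, 14 of the 29 still had a response smaller by over 1. For Il6 the difference was -1.70 without and -0.55 with the pseudocount.

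**Figure D5:**
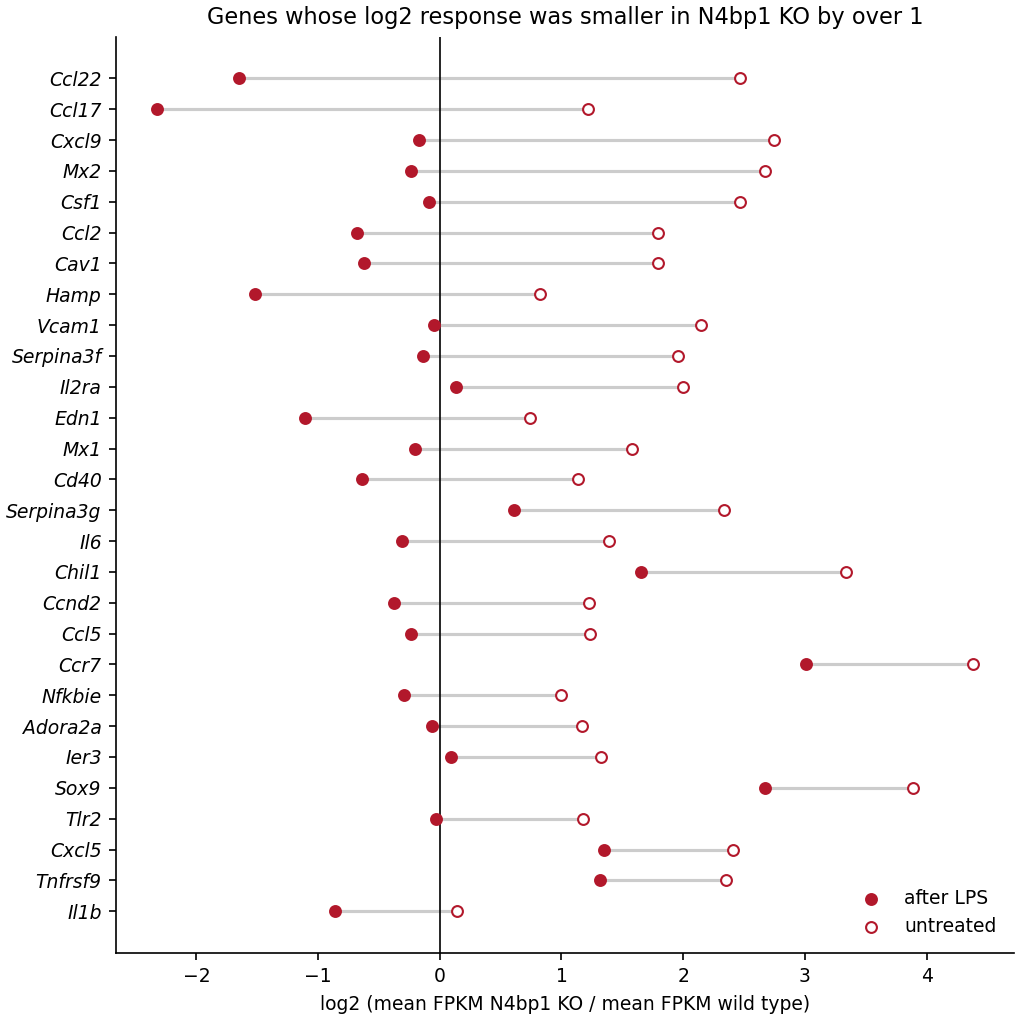
Log2 ratio of mean FPKM in N4bp1-/- to wild-type macrophages (horizontal) after LPS (filled) and untreated (open) for genes whose response was smaller in knockout cells by over 1. Every open point lies right of 0, and the filled points of Ccl17, Ccl22, Hamp and Edn1 lie left of -1.

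The 4 genes with a response larger by over 1 in knockout cells had 25.3 FPKM or less after LPS. Il10 had 7.95 FPKM after LPS and 0.0741 FPKM untreated in knockout cells, and 3.43 and 0.127 FPKM in wild-type cells, a difference of 1.99, or 1.08 with the pseudocount of 1 FPKM. Lcn2, which encodes the siderophore-binding protein lipocalin 2, had 25.3 FPKM after LPS and 1.61 FPKM untreated in knockout cells, and 11.1 and 2.26 FPKM in wild-type cells, a difference of 1.68. Trem1, an amplifying receptor of myeloid cells, had 2.49 FPKM after LPS and 0.205 FPKM untreated in knockout cells, and 0.160 and 0.0271 FPKM in wild-type cells. Fcer2a stayed under 1 FPKM throughout. With the pseudocount of 1 FPKM the 6 highest differences also include Ptges (0.98), Upp1 (0.97) and Pdgfb, a platelet-derived growth factor chain (0.87), which without it were at 0.48, -0.000655 and 0.88. Ptges had 146 FPKM after LPS in knockout cells and 33.4 FPKM in wild-type cells, against 3.73 and 1.19 FPKM untreated. Lcn2 and Trem1 are also neutrophil markers, and the part of neutrophils in this was not tested. Mmp9, the other neutrophil marker with values, had a smaller response in knockout cells, with a difference of -0.49. Under the scaling this becomes 0 by construction, because Mmp9 is the median of the least changed genes in both genotypes.

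By list, all 11 interferon-inducible genes had a smaller ratio in knockout cells, with a median difference of -0.69, beside 81.3% of all genes and -0.51, but the difference of 0.49 between the scalings above would turn Tapbp (-0.04), Psme2 (-0.29), Cd274 (-0.42) and Il27 (-0.43) to larger. For CC chemokines the ratio was smaller in 6 of 7 genes, with a median of -1.47, the exception, Ccl3, had a difference of 0.10, and Ccl4 (-0.06) would turn to larger. For the 4 IκB genes it was smaller in all 4, at a median of -0.87, and each stays below 0 under that scaling. Genes measured by the study with RT-qPCR after R848 had LPS response differences of -0.54 (Tnf), -1.01 (Il1b), -1.70 (Il6), -0.71 (Il12p40) and 1.99 (Il10). Ccl5, also measured there, had -1.47. Cxcl10, at -0.91, had 2669 FPKM after LPS in knockout and 3350 FPKM in wild-type cells, against 1.91 FPKM untreated in knockout and 1.27 FPKM in wild-type cells.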

How the data were processed

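RNA of thioglycollate-elicited peritoneal macrophages was sequenced from stranded mRNA libraries. Reads were aligned to mm10 with TopHat2 2.0.10 and assembled with Cufflinks 2.1.1, after CASAVA 1.8.2, per the submitters' processing notes, and genotypes were compared with a cuffdiff release later than that of Cufflinks. The annotation used and any read filters were not given in the sources used here. For each gene, genotype and treatment the authors deposited 1 FPKM value, their mean over 2 mice, so the depth is unknown. The fold changes, test scores, p-values and q-values of the authors between the genotypes stand in the same tables and were not used.

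Ratios of these means were computed with no pseudocount, no filter and no test. The alternatives were pseudocounts of 0.1 and 1 FPKM, a minimum of 1 FPKM in at least 1 group, leaving out the 4 joined loci, scaling to the 31 genes least changed after LPS in wild-type cells, a threshold of 4-fold, the share without the highest gene, and motifs in the 250 bases before the start only. Start coordinates, which count from 0 in the tables, were raised by 1. Promoters were read from RefSeq (GRCm38.p6) by gene symbol, and both strands were searched. The members and gene lists were chosen with earlier results of these data known. Genes are named by rule. Included are those the study measured by RT-qPCR after R848, genes with a ratio under 1, the gene listed at 0, and up to 5 members per list. Also included are the 12 highest and 8 lowest ratios with a pseudocount of 1 FPKM among genes at or over 1 FPKM. The 10 highest levels in each group and the 6 largest differences from wild type in each direction complete the rule. Other genes were named after their values were seen. For 1 gene no value is given in the text or in the plot of genes with smaller responses, although counts, sums and medians include it. Bcl2a1a, Bcl2a1b and Bcl2a1d, Orm1 to Orm3, and Serpina3f, Serpina3g and Serpina3n are similar copies, and the split of reads among them is uncertain. The computations used Python 3.11.15, numpy 2.4.6, pandas 2.3.3 and matplotlib 3.10.9.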

Additional observations from a re-analysis of the deposited data

How the results depend on the processing

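No replicate could be left out and no test was possible, since only group means were used here. No paired analysis was possible because the columns carry group means and no replicate numbers. The median log2 ratio in N4bp1-/- cells, 3.16, was 2.62 and 3.11 with pseudocounts of 1 and 0.1 FPKM, 3.38 with a minimum of 1 FPKM, 3.23 without the joined loci and 2.25 scaled to the least changed genes. In the same order, the median difference of the knockout from the wild-type response, -0.51, was -0.27, -0.45, -0.52, -0.52 and -0.014. Scaled to the least changed genes, with a separate shift for each genotype, 63 in place of 100 genes had the smaller response in knockout cells. Those smaller by over 1 numbered 19 in place of 29, and 15 with a pseudocount of 1 FPKM. Under that scaling 15 genes in place of 2 were lower after LPS, among them Myc (-0.59), Sox9 (-0.41), Plau (-0.40), Abca1 (-0.24), Cyp7b1 (-0.19), Spi1 (-0.072), Ptafr (-0.052) and Ccr7 (-0.032). The shift is the knockout median of the 31 least changed genes, so 15 of them fall below 0 by construction. The cause was not tested, beyond the subtraction itself. None of the 90 list medians computed under the alternatives was below 0. Without the highest gene, the 10 highest genes held 50.5% of the summed FPKM after LPS and 48.1% untreated. In the 250 bases before the start, the κB consensus occurred in 26.8%, the IRF repeat in 3.66%, the TATA box in 22.0% and the AP-1 motif in 17.1% of matched genes, a shorter window. The unknown depth limits all ratios against untreated levels under 1 FPKM, which 33 genes had.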

Other observations

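The 4 listed genes in no gene list were also higher in N4bp1-/- cells after LPS: Tnfaip2 by 10.4-fold, Cav1 by 9.38-fold, Prkcd by 2.50-fold and the joined locus of Ahctf1 and Kif28 by 1.75-fold. The joined locus is itself among the least changed genes, and its turn to lower when scaled to them follows from the subtraction.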
